A study of Mus musculus with 2 samples.

Results

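The genes described here are the interleukins, the TNF superfamily ligands, LIF and oncostatin M, together with their receptors and antagonists, in mouse brown preadipocytes (D0) and brown adipocytes (D7). They were taken from the deposited expression table by their symbols: every gene with values whose symbol is Il followed by a digit, Tnf, Tnfsf or Tnfrsf followed by a digit, Lif, Lifr, Osm or Osmr, with 1 receptor gene left out. Of 119 symbols, Il28b and Il28ra carried no value, which left 117 members among the 23361 genes with values. The members comprised 52 ligands, 55 receptor chains, 9 antagonists or decoys and 1 enzyme, Il4i1.

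RNA-Seq compared 2 stages of one culture system, with 1 library per stage. The cells came from newborn C57BL/6 mice, from their interscapular brown fat, and per the labels they were kept in serum with insulin and T3 from before induction. At D0 they were preadipocytes at the point of induction, and at D7 they had been induced with IBMX, dexamethasone and indomethacin and then returned to insulin and T3. The labels call the cells primary cultures, while the methods of the study describe immortalization with large T, and neither states whether cells of several newborn mice were pooled. Each value is an FPKM, a number of fragments scaled to transcript length and sequencing depth, so that levels may be set side by side between genes. Because each stage was a single library, replicates cannot check any difference below, and there is no p-value. A gene was called higher at D7 when its ratio of D7 to D0 was 2 or more, and lower when it was 0.5 or less. The 95% interval given after a ratio is an exact Clopper-Pearson interval on the numbers of fragments recovered from the FPKM values, which covers counting error only and compares the 2 libraries, not the stages.

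Interleukins and TNF superfamily ligands are secreted or membrane-bound signals of immune and stromal cells. Most interleukins bind a private receptor chain together with a chain shared by several ligands, such as gp130 (Il6st) for the IL-6 family or the common gamma chain (Il2rg), and signal through JAK kinases and STAT factors. IL-1 family and TNF family receptors instead recruit adaptor proteins and lead to NF-kB, and both families are held in check by antagonists and decoy receptors. In adipose tissue, TNF and IL-1 are known to inhibit adipocyte differentiation and insulin action, and IL-4, IL-13 and IL-33 are associated with type 2 immunity.

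The labelled cell state was checked first. Of 10 adipocyte markers, 8 were higher at D7, among them Pparg, Adipoq and Fabp4, and the other 2, Ucp1 and Cidea, stood at 0 in the D0 library and at 4.57 and 24.4 FPKM in the D7 library. Of 10 preadipocyte and fibroblast markers, 4 were lower, 2 higher and 4 under 2-fold. Markers of macrophages moved with the stage: 15 of 16 were higher at D7 (Cd14 was not), none was at 0, and their summed FPKM was 160 at D0 and 615 in the adipocytes. Of the neutrophil markers, 3 of 6 were higher, with sums of 0.904 and 12.2, while S100a9 and Elane were at 0 in both libraries. T and NK cell markers summed to 0.341 and 0.0873, with Cd3d, Cd3g, Cd4 and Cd8a at 0 in both libraries, and the sums were 0.275 and 0.588 for B cell markers (Ms4a1 and Pax5 at 0), 0.176 and 0.386 for mast cell markers (Mcpt4, Tpsb2 and Fcer1a at 0), and 1.62 and 2.69 for endothelial markers (Tie1 and Cldn5 at 0). The part of these other cells in the results below was not tested, and fewer cells of a type cannot be told apart from less RNA per cell in such bulk libraries.

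More of these genes were lower than higher in adipocytes, and among the lowest ratios of D7 to D0 were those of the IL-33 receptor Il1rl1, the ligands Il6, Il11 and Tnfsf8, and the IL-13 receptor chain Il13ra1. Among the higher members with an FPKM of at least 1 were the antagonist Il18bp, the receptor chains Il31ra, Il15ra, Lifr and Il6ra, and the ligands Il34 and Il15. Of the 117 members, 72 were above 0 in both libraries. Among those, 16 were higher at D7 (22.2%, against 18.5% of all genes above 0 in both libraries) and 28 were lower (38.9%, against 13.2% of all genes). Another 35 members (29.9%) were listed at 0 in both libraries, close to the 28.6% of all genes with values. The remaining 10 were listed at 0 in 1 library only.

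Of the 42 members with an FPKM of at least 1 in a library, 7 were higher at D7 (16.7%, against 15.6% of all genes at that level) and 20 were lower (47.6%, against 11.9%). Their median log2 ratio was -0.93, beside -0.03 over all genes at that level. The summed FPKM of all members was 867 at D0 and 551 at D7. Receptor chains held most of it, with 761 and 486, while ligands summed to 57.1 and 41.3 and antagonists and decoys to 48.4 and 22.4. Among members above 0 in both libraries, 10 of 23 ligands, 13 of 41 receptor chains and 5 of 7 antagonists or decoys were lower. Higher at D7 were 7, 8 and 1 of these, in that order. Over all genes above 0 in both libraries, 13.2% were lower and 18.5% higher. The antagonists or decoys are too few to be read against those shares. The rule that chose the members did not use the values, but the members were chosen with earlier results of these data known.

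**Figure D1:**
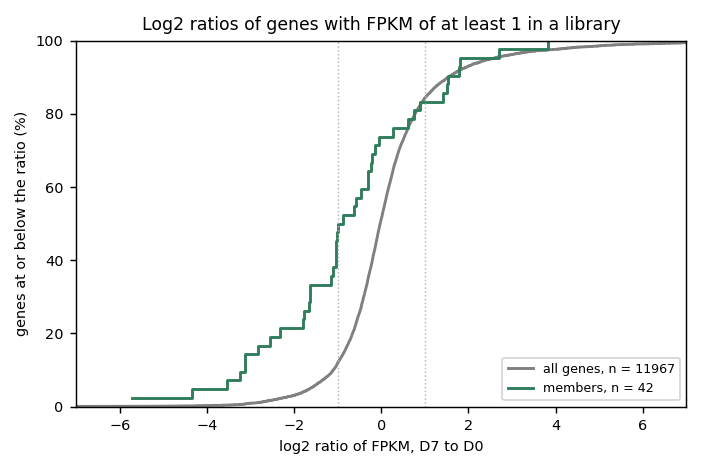
The line for the 42 members with FPKM of at least 1 in a library and that for the 11967 genes at that level give the percent of genes (vertical axis) at or below each log2 ratio of FPKM, D7 to D0 (horizontal axis). Dotted lines mark the 2-fold limits. The members' line lies to the left of that of all genes over the lower ratios and joins it above a log2 ratio of about 1, where 7 members are higher.

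Promoters of members with some of the lowest and highest ratios are shown because these members stand at the ends of the range. They were taken from RefSeq (GRCm38.p6, the build mm10), on the strand of the gene. The runs of Il6, Il11 and Il31ra hold 250 bases and end at the base before the start in that table. Those of Il1rl1 (248 bases) and Lifr (237 bases) end short of that base, since bases in an annotated exon were cut off. Of the 117 members, 92 had a promoter in the table, and these 5 have the 3 lowest and the 2 highest ratios among those with FPKM of at least 1 in a library and at least 200 upstream bases free of annotated exons. Capitals mark matches to GGNNNTTCC (NF-kB), TTCNNNGAA (STAT), TGANTCA (AP-1) or TTGCNNAA (C/EBP), searched on both strands of the run shown. The counts over all promoters and over those of members used all 250 upstream bases. Matches to different motifs may overlap. The run of Il1rl1 is chr1:40439379-40439626, plus strand. That of Il6 is chr5:30012864-30013113, plus strand, directly before the annotated gene. The others are chr7:4778142-4778391, minus strand, for Il11, chr13:112580663-112580912, minus strand, for Il31ra, and chr15:7129322-7129558, plus strand, for Lifr. Except for that of Il6, these runs lie within the annotated gene, downstream of its most distal start.
Il1rl1: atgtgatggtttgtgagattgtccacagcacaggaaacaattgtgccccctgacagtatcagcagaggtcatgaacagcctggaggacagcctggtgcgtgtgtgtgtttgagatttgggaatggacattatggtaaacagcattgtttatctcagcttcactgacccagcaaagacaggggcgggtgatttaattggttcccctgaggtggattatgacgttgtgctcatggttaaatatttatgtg
Il6: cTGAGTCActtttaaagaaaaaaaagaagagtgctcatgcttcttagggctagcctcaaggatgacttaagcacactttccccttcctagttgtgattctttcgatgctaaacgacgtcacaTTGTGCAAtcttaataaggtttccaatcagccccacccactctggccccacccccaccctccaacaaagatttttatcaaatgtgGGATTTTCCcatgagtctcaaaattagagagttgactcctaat
Il11: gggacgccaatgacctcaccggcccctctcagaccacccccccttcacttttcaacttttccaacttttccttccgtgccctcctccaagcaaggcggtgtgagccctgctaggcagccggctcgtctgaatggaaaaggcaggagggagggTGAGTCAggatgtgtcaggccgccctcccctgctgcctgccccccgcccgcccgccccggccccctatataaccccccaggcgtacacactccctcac
Il31ra: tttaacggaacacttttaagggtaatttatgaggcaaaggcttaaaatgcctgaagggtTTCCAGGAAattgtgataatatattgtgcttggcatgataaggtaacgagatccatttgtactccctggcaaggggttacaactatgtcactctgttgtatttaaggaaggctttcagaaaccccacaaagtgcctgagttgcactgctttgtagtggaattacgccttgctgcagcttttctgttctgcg
Lifr: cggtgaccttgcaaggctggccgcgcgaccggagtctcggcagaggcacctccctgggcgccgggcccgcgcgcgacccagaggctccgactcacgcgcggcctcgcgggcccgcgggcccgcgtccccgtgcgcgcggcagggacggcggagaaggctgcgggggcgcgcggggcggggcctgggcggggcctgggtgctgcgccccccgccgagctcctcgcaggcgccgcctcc

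In the Il6 promoter, the match to AP-1 began 249 bp, that to C/EBP 128 bp and that to NF-kB 43 bp before the start. Il11 held a match to AP-1 that began 98 bp before the start, and Il31ra one to STAT at 191 bp, while Il1rl1 and Lifr held none of these letters in the window. The start of Il31ra in that table lies 0 bp from the start of an annotated transcript. Its first 30 transcribed bases were nonetheless not found in an annotated transcript, and the reason was not tested. Over all 32536 promoters, matches were present in 15.7% for NF-kB, 7.04% for STAT, 6.73% for AP-1 and 9.57% for C/EBP. Over the 92 promoters of members, 19 held a match for NF-kB, 11 for STAT, 18 for AP-1 and 13 for C/EBP. Among members with FPKM of at least 1, the 15 lower ones with a promoter held 4, 0, 3 and 4 such promoters in that order, the 5 higher ones 1 of each, and the 12 under 2-fold 2, 2, 0 and 1. A match is a run of letters and not a shown site of binding.

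The IL-1 family was mostly lower at D7. Of its 20 members, 12 were above 0 in both libraries. Among those 12, 8 were lower, 1 higher and 3 under 2-fold, beside 13.2% lower and 18.5% higher among all genes. Il1rl1 (ENSMUSG00000026069.15, chromosome 1, 40429570 to 40465415), the ST2 receptor of IL-33, reached 23.0 FPKM at D0 and 0.438 FPKM at D7, from about 2535 and 41 fragments. This was the lowest ratio of all members, 0.0190 (95% interval 0.0136 to 0.0258), a level 52.7 times higher at D0. The gene is known to encode a membrane receptor and a soluble decoy form, and the table gives a single value for both. The ligand Il33, an alarmin of stromal cells, was low in both libraries with an FPKM of 0.862 and 0.326, a ratio of 0.378 (0.191 to 0.702).

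Il1r1, the signalling receptor of IL-1, reached 33.1 FPKM at D0 and 16.1 FPKM at D7, a ratio of 0.487 (0.459 to 0.515), close to the limit of 0.5. Il1rl2, the receptor of IL-36, had 7.18 and 2.11, a ratio of 0.293 (0.221 to 0.384). Il18rap, the accessory chain of the IL-18 receptor, had 1.13 and 0.119, a ratio of 0.105 (0.0491 to 0.200) on 115 and 10 fragments, while its partner Il18r1 was listed at 0 in both libraries. The accessory chain Il1rap, which the receptors of IL-1, IL-33 and IL-36 share, went the other way without reaching 2-fold, with 6.04 and 9.30, a ratio of 1.54 (1.31 to 1.81). The receptor chains of the IL-1 family thus differed from each other in direction.

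Both IL-1 ligands, Il1a and Il1b, were listed at 0 in both libraries, as were the IL-36 ligands Il1f6 and Il1f8 and Il1f5, which encodes the antagonist of the IL-36 receptor. Il1rn, the antagonist that occupies the IL-1 receptor without signalling, was nonetheless present with 12.1 FPKM in the D0 library and 3.49 FPKM in the D7 library, a ratio of 0.288 (0.233 to 0.354). Il1f10, which encodes IL-38, had 4.02 and 0.461, a ratio of 0.115 (0.0224 to 0.368) on 31 and 3 fragments. Il18, a ligand that is stored as a precursor, had 2.24 and 1.44, and its interval from 0.341 to 1.18 includes 1, so a difference was not detectable at this depth. Il18bp (ENSMUSG00000070427.4, chromosome 7, 102014885 to 102018690), the secreted protein that neutralises IL-18, was the one IL-1 family gene higher at D7. Its FPKM was 0.647 at D0 and 9.15 in the adipocytes, a ratio of 14.1 (8.95 to 23.6) from about 20 and 236 fragments. An exon of Numa1 on the opposite strand overlaps it, and, although the libraries were made with the second strand degraded, whether the counting used strand is not given in the sources used here.

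Several of these genes are neighbours. The 3 groups given here were picked without a set rule from 21 groups of members within 200 kb of each other. Other groups held higher members, such as Il17re (22.7) beside Il17rc (1.68) and Il31ra (6.47) beside Il6st (0.811). Among members above 0 in both libraries, 38.9% were lower, against 13.2% of all genes. On chromosome 1, between 40074079 and 40551705, Il1r2, Il1r1, Il1rl2, Il1rl1, Il18r1 and Il18rap lie in a row, and 4 of these 6 receptor genes were lower at D7. Il1r2, a decoy receptor of IL-1, was the exception above 0, with an FPKM of 0.480 and 0.424. On chromosome 2, between 24153161 and 24351494, the ligand and antagonist genes Il1f8, Il1f9, Il1f6, Il1f5, Il1f10 and Il1rn held 3 lower members, Il1f9, Il1f10 and Il1rn, and 3 at 0 in both libraries. On chromosome 7, between 143607659 and 143685872, the TNF receptor superfamily genes Tnfrsf26, Tnfrsf22 and Tnfrsf23 were all 3 lower.

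**Figure D2:**
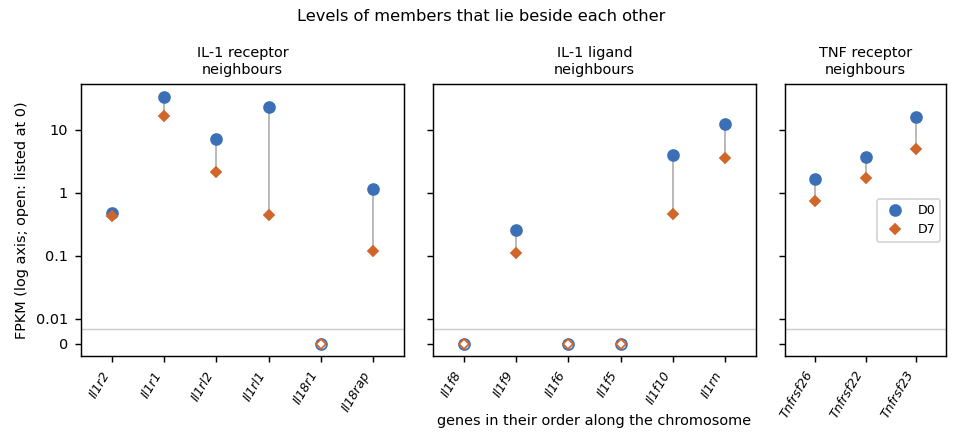
Points give the FPKM (log axis, open symbols at the foot for genes listed at 0) at D0 and at D7, 1 library each, for 3 groups of members that lie within 200 kb of each other, in their order along the chromosome. Every gene above 0 in these groups lies lower at D7, from the gap of 0.480 to 0.424 of Il1r2 to that of 23.0 to 0.438 of Il1rl1. The interval of the ratio of Il1r2 (0.347 to 2.18) includes 1, as does that of Il1f9 (0.0755 to 1.84). Other groups of neighbours, not shown, held higher members.

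In the IL-6 family, 3 of the 11 members above 0 in both libraries were higher and 3 were lower, beside 18.5% and 13.2% of all genes. The lower ones were 3 of the 4 ligands, and the higher ones were 3 of the 7 receptor chains, groups too small to be read against those shares. Il6 (ENSMUSG00000025746.11, chromosome 5, 30013114 to 30019981), an inflammatory and metabolic cytokine, reached 9.90 FPKM at D0 and 0.484 FPKM at D7. Its ratio was 0.0489 (95% interval 0.0208 to 0.0982), from about 204 and 8 fragments. Il11 (ENSMUSG00000004371.15, chromosome 7, 4772373 to 4782859), a stromal cytokine, had 5.04 and 0.435, a ratio of 0.0863 (0.0463 to 0.148). Lif, named for inhibiting leukaemia cells, had 1.87 and 0.908, a ratio of 0.487 (0.358 to 0.656). Its ratio passed the limit narrowly and no longer did with a pseudocount of 0.1 (0.513) or 1 (0.666) or when centred on the median ratio (0.503). The summed FPKM of the ligands was 16.9 at D0 and 2.00 at D7.

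Il6st, which encodes the shared chain gp130, was among the most abundant members in both libraries, with an FPKM of 90.2 and 73.2, a ratio of 0.811 (0.791 to 0.830). The chain Il6ra, which binds IL-6 itself, (ENSMUSG00000027947.11, chromosome 3, 89864059 to 89913196) was higher at D7, with 2.44 and 6.48, a ratio of 2.65 (2.20 to 3.20). Lifr (ENSMUSG00000054263.12, chromosome 15, 7090614 to 7197489), which pairs with gp130 for LIF and several related ligands, had 1.98 and 5.64, a ratio of 2.85 (2.28 to 3.57). Il6 was thus lower while Il6ra was higher at D7. Il11ra1, the IL-11 chain, hardly differed, with 40.9 and 37.2, a ratio of 0.911 (0.842 to 0.986), and 30.9% and 37.2% of the 90-base stretches of its transcript also occur in Il11ra2 and Gm13305, so its value is uncertain.

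Osmr, the oncostatin M receptor, reached 58.5 FPKM at D0 and 29.5 FPKM at D7, a ratio of 0.504 (0.483 to 0.527), just short of the limit, and it passed the limit at 0.495 when both libraries were rescaled to TPM. Il31ra (ENSMUSG00000050377.8, chromosome 13, 112519898 to 112594360), which pairs with Osmr to bind IL-31, had 0.267 and 1.73, a ratio of 6.47 (3.99 to 11.0) on 20 and 110 fragments. An annotated exon of Gm3226 on the same strand overlaps an exon of Il31ra. The ligand Il31 was listed at 0 in both libraries, and Osm, chosen after its value was seen, had about 2 fragments in each. Il6st and Il31ra lie next to each other on chromosome 13 and differed in direction.

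**Figure D3:**
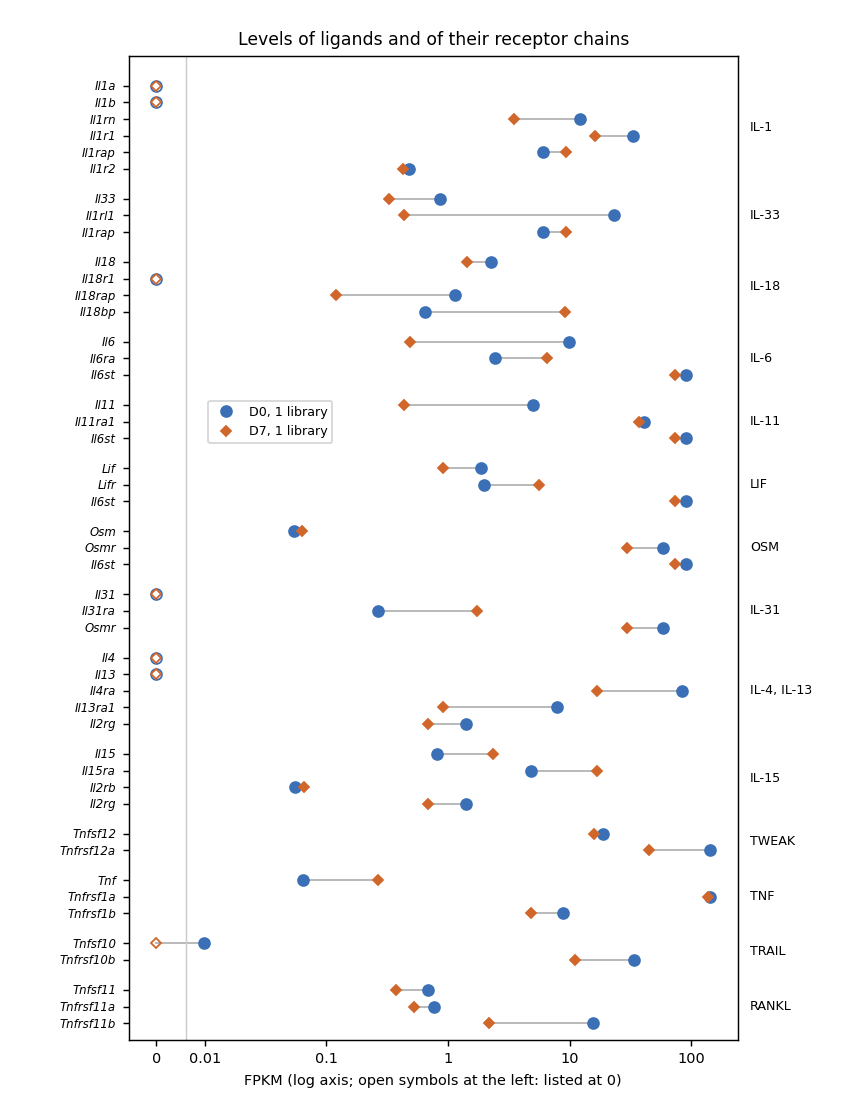
Points give the FPKM (log axis, open symbols at the left for genes listed at 0) at D0 and at D7, 1 library each, for ligands and for the chains of their receptors, with decoys and antagonists, grouped by ligand. Il6, Il11 and Lif lie lower at D7 while Il6ra and Lifr lie higher, Il4ra and Il13ra1 both lie lower, and Il15 and Il15ra both lie higher.

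Among genes of the common gamma chain and IL-13 group, 10 of 17 were above 0 in both libraries. Of these, 3 were higher, 4 lower and 3 under 2-fold, beside 18.5% higher and 13.2% lower among all genes. The group is too small to be read against those shares. Both chains of the type II receptor for IL-4 and IL-13 were lower. Il4ra (ENSMUSG00000030748.9, chromosome 7, 125552120 to 125579474) reached 84.3 FPKM at D0 and 16.7 FPKM at D7, a ratio of 0.198 (0.188 to 0.209) on about 9192 and 1550 fragments. Il13ra1 (ENSMUSG00000017057.9, chromosome X, 36112110 to 36171259) had 7.89 and 0.906, a ratio of 0.115 (0.0862 to 0.151). Il2rg, the common gamma chain, had 1.40 and 0.689, a ratio of 0.493 (0.272 to 0.860), and it shares exons with Gm20489. The decoy Il13ra2 was low, with 0.378 and 0.121, a ratio of 0.321 (0.0927 to 0.907), and the ligands Il4 and Il13 were listed at 0 in both libraries.

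IL-15 and its own receptor chain went the other way. Il15, a cytokine of lymphocyte survival also made by muscle and stromal cells, reached 0.807 FPKM at D0 and 2.35 FPKM at D7, a ratio of 2.91 (1.67 to 5.26). Il15ra (ENSMUSG00000023206.16, chromosome 2, 11705290 to 11734317), which presents IL-15 to neighbouring cells, had 4.83 and 16.6, a ratio of 3.44 (2.85 to 4.18). The chain Il2rb, which signals for IL-15 in the responding cell, was at 0.0555 and 0.0653 on about 5 fragments in each library, a gene chosen after its values were seen. Il7, another lymphocyte survival factor, had 0.325 and 0.836, a ratio of 2.57 (1.68 to 4.02).

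Among TNF receptor superfamily genes, 15 of 19 were above 0 in both libraries. Of these, 7 were lower, 2 higher and 6 under 2-fold, beside 13.2% lower and 18.5% higher among all genes. The 2 higher ones, Tnfrsf19 and Tnfrsf25, rest on 3 and 7 and on 1 and 2 fragments, and their intervals include 1. The most abundant member at both stages was Tnfrsf1a, the main TNF receptor, with 143 FPKM in the D0 library and 138 FPKM in the D7 library. Its ratio was 0.963 (0.927 to 1.00), while the other TNF receptor, Tnfrsf1b, had 8.80 and 4.81, a ratio of 0.547 (0.477 to 0.625). Tnf itself, chosen after its values were seen, had about 2 and 7 fragments, and the interval of its ratio, 0.785 to 40.7, includes 1.

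Tnfrsf12a (ENSMUSG00000023905.15, chromosome 17, 23675445 to 23677468), the receptor Fn14 of the ligand TWEAK, was about as abundant as Tnfrsf1a at D0, with an FPKM of 142, and was at 44.7 at D7. Its ratio was 0.314 (0.288 to 0.343), while Tnfsf12, which encodes TWEAK, had 18.7 and 15.7, a ratio of 0.843 (0.734 to 0.967). The receptor of this pair was thus lower and the ligand under 2-fold, with the limit that 47.5% of the 90-base stretches of Tnfsf12 occur in the readthrough gene Tnfsfm13. Tnfrsf11b (ENSMUSG00000063727.3, chromosome 15, 54250619 to 54278484), which encodes osteoprotegerin, the soluble decoy of RANKL, had 15.5 and 2.18, a ratio of 0.141 (0.114 to 0.172). Its ligand Tnfsf11 had 0.680 and 0.373, with an interval of the ratio from 0.269 to 1.07 that includes 1, and was chosen after its values were seen.

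Tnfrsf10b (ENSMUSG00000022074.6, chromosome 14, 69767472 to 69784411), the death receptor of TRAIL, reached 34.1 FPKM at D0 and 11.0 FPKM at D7, a ratio of 0.322 (0.294 to 0.352). The mouse TRAIL decoy receptors were lower too. Tnfrsf23 had 15.5 and 4.96, a ratio of 0.319 (0.258 to 0.392), and Tnfrsf22 had 3.67 and 1.70, a ratio of 0.464 (0.343 to 0.620). Of the 90-base stretches of Tnfrsf22, 17.1% occur in Tnfrsf23, and of those of Tnfrsf23, 18.7% occur in Tnfrsf22, so reads could pass between them. The ligand, Tnfsf10, chosen after its values were seen, had 1 fragment in the D0 library and none in the D7 library. The neighbouring gene Tnfrsf26 had 1.66 and 0.744, a ratio of 0.447 (0.303 to 0.649). Tnfrsf14, a receptor of the ligand LIGHT, had 3.65 and 1.77, a ratio of 0.485 (0.298 to 0.769), and Tnfrsf21, a receptor with a death domain, had 1.93 and 1.56, with an interval from 0.617 to 1.05 that includes 1.

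Of the 12 TNF superfamily ligands, 9 were above 0 in both libraries. Among those 9, 4 were lower, 2 higher and 3 under 2-fold, beside 13.2% lower and 18.5% higher among all genes. The group is too small to be read against those shares. Tnfsf9, a costimulatory ligand of T cells, reached 4.30 FPKM at D0 and 0.731 FPKM at D7, a ratio of 0.170 (0.0919 to 0.294). Tnfsf8 (ENSMUSG00000028362.2, chromosome 4, 63831308 to 63861347), the CD30 ligand, had 0.932 and 0.0535, a ratio of 0.0574 (0.0152 to 0.153) on 73 and 4 fragments. Its neighbour Tnfsf15, the ligand TL1A, had 0.140 and 0.0194 on about 10 fragments and 1 fragment, a ratio of 0.138 (0.00319 to 0.973). Tnfsf8 and Tnfsf15 were thus below an FPKM of 1 in both libraries. Tnfsf18, the GITR ligand, had 0.544 and 0.116, a ratio of 0.214 (0.0536 to 0.630). Of the ligands higher at D7, Tnfsf13b, the B cell survival factor BAFF, had 0.215 and 0.469, a ratio of 2.19 (1.26 to 3.91), and the other was Tnf. Tnfsf13b did not reach 2-fold with a pseudocount of 0.1 (1.81) or 1 (1.21) or when each library was divided by its median (1.71).

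**Figure D4:**
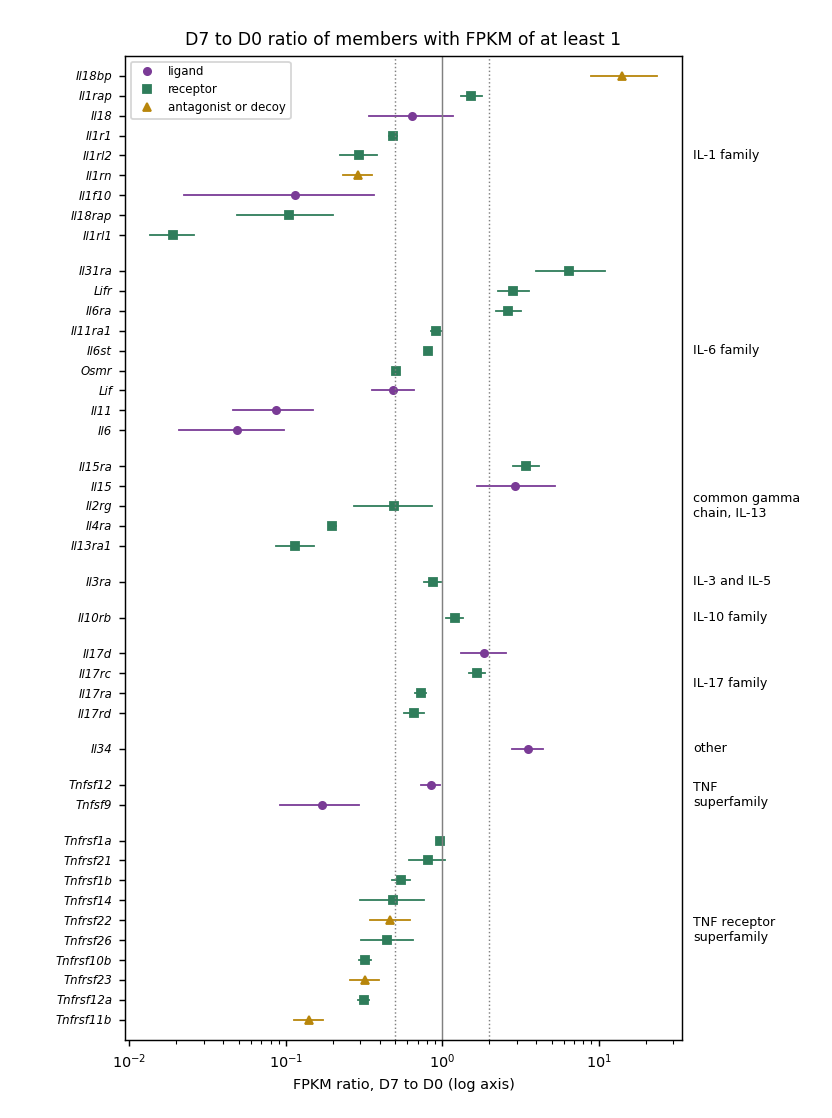
Points give the ratio of FPKM, D7 to D0 (log axis), of the 42 members with FPKM of at least 1 in a library, by family and role, and bars give the exact 95% interval for counting error only. The solid line marks a ratio of 1 and dotted lines the 2-fold limits, and the points run from 0.0190 for Il1rl1 to 14.1 for Il18bp, with 20 at or left of the lower limit and 7 at or right of the upper one.

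Of the 5 IL-17 family members above 0 in both libraries, 1 was higher and 0 were lower, beside 18.5% and 13.2% of all genes. The group is too small to be read against those shares. Il17d, a ligand made outside lymphocytes, reached 2.63 FPKM at D0 and 4.84 FPKM at D7, a ratio of 1.84 (1.32 to 2.57). Il17rc, which pairs with Il17ra to bind IL-17A and IL-17F, had 11.0 and 18.5, a ratio of 1.68 (1.49 to 1.88), while the shared chain Il17ra had 10.6 and 7.70, a ratio of 0.728 (0.674 to 0.787). Il17rd had 2.93 and 1.95, a ratio of 0.665 (0.573 to 0.770). Il17re, next to Il17rc on chromosome 6, had 0.0169 FPKM in preadipocytes and 0.384 in adipocytes, a ratio of 22.7 (3.41 to 965). These values rest on about 1 and 13 fragments, numbers that are only approximate. The ligands Il17a, Il17f and Il25 were listed at 0 in both libraries.

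Il34 (ENSMUSG00000031750.15, chromosome 8, 110741829 to 110805924), a ligand of the macrophage receptor Csf1r, reached 3.01 FPKM at D0 and 10.6 FPKM at D7, a ratio of 3.52 (2.81 to 4.43). Csf1, the other ligand of that receptor, was much more abundant and lower at D7, with 304 and 144, a ratio of 0.474 (0.463 to 0.485). Csf1r itself had 2.63 and 10.4, a ratio of 3.94 (3.37 to 4.62), and is also one of the macrophage markers that were higher at D7. The 2 ligands of this receptor thus differed in direction.

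In the IL-10 family, Il10rb, the chain shared by IL-10 and IL-22, reached 13.9 FPKM at D0 and 16.6 FPKM at D7, a ratio of 1.20 (1.06 to 1.36) that turned to 0.941 when each library was divided by its median, and 27.4% of its 90-base stretches occur in Gm21970. Il10ra, the private IL-10 chain and a gene of leukocytes, had 0.183 and 0.810, a ratio of 4.43 (2.37 to 8.91). Il20ra had 0.537 and 0.115, a ratio of 0.214 (0.0536 to 0.630). Next to it on chromosome 10, Il22ra2, the soluble decoy of IL-22, was listed at 0 at D0 and had 0.407 at D7 from about 17 fragments, at least 6.76-fold higher than the limit of 3 fragments per library. Of the IL-3 and IL-5 group, only Il3ra was above 0, with 20.4 and 17.8, a ratio of 0.869 (0.769 to 0.981). Il16, a chemoattractant of CD4+ cells, had 0.0775 and 0.216, a ratio of 2.79 (1.18 to 7.33) on about 8 and 20 fragments. Its ratio did not reach 2-fold with a pseudocount of 0.1 (1.78) or 1 (1.13). Il10ra and Il16, like Tnfsf13b, Csf1r, Ptpn6 and Casp1, are known from leukocytes, and they were higher in the library in which the summed FPKM of the macrophage markers was 615 rather than 160. Other genes known from leukocytes were lower, among them Il2rg (0.493), Il18rap (0.105) and Cd40 (0.131), and Il2rb (1.18) was under 2-fold. The part of macrophages in these values was not tested.

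The 35 members listed at 0 in both libraries were 24 ligands, 10 receptor chains and the antagonist Il1f5. Beside those already given, they were Il2, Il3, Il5, Il8 (whose locus is annotated as Cxcl15), Il9, Il10, Il12a, Il12b, Il19, Il20, Il21, Il22, Il24 and Tnfsf4 among ligands, and Il1rapl1, Il1rapl2, Il5ra, Il9r, Il17rb, Il23r, Tnfrsf8, Tnfrsf13c and Tnfrsf17 among the others. A listing at 0 was read as no counted fragment, with a limit of 3 fragments set on the level. For Il10 that limit is 0.124 FPKM in the D0 library and 0.146 FPKM in the D7 library. None of the IL-12 family members reached an FPKM of 1. The receptor chains Il5ra and Il9r were thus at 0 together with their ligands, whereas Il4ra and Il17ra were present beside ligands listed at 0.

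The signalling genes outside the members had a median ratio like that of all genes. Of 119 measured genes in 6 lists of signalling, adaptor and related genes, 110 were above 0 in both libraries, of which 18 were higher, 14 lower and 78 under 2-fold, counts near the 18.5% and 13.2% of all genes, with a median log2 ratio of 0.02, beside 0.02 over all genes. Division of the libraries by their medians, which also gave ratios to genes listed at 0 in 1 library, turned the balance to 16 higher and 23 lower. The shares of all genes under that division were not counted. Of 25 JAK, STAT and SOCS genes, 3 were higher and 4 lower. The lower ones included 3 of the SOCS genes, which encode feedback inhibitors of cytokine receptors. The other genes of this kind, Socs2, Socs4, Socs6, Socs7 and Cish, were under 2-fold, with ratios of 1.71, 1.35, 1.22, 1.43 and 1.39. Socs3 reached 26.3 FPKM at D0 and 7.17 FPKM at D7, a ratio of 0.273 (0.240 to 0.309). Socs1 had 5.82 and 1.22, a ratio of 0.209 (0.155 to 0.277), and Socs5 had 29.8 and 14.7, a ratio of 0.493 (0.461 to 0.528). The STAT factors past 2-fold differed in direction, since Stat2 had 41.1 and 18.6, a ratio of 0.452 (0.425 to 0.481), and Stat5a had 4.58 and 13.1, a ratio of 2.85 (2.52 to 3.23). Jak3, the kinase of the common gamma chain, had 2.53 and 5.85, a ratio of 2.31 (1.95 to 2.74), and the phosphatase Ptpn6, which is known from blood cells, had 0.599 and 3.04, a ratio of 5.07 (3.29 to 8.10).

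Of 22 NF-kB genes, 2 were higher and 2 lower, and the other 18 were under 2-fold. Over all genes above 0 in both libraries, 18.5% were higher and 13.2% lower. The 2 lower ones, Nfkbid and Tnip3, named after their values were seen, stayed below an FPKM of 1, and their intervals (0.0683 to 1.57 and 0.00497 to 2.10) include 1. Both of the higher ones are feedback inhibitors. Nfkbia reached 11.3 FPKM at D0 and 24.5 FPKM at D7, a ratio of 2.17 (1.90 to 2.49), and Tnfaip3 had 1.10 and 2.40, a ratio of 2.19 (1.71 to 2.82). Of 29 adaptors of TNF and IL-1 receptors, 3 were higher and 2 lower, beside the same shares of all genes. The higher ones included Sigirr, named after its values were seen, with about 1 and 4 fragments and an interval (0.466 to 232) that includes 1. Ripk3, the kinase of necroptosis, had 66.7 and 8.54, a ratio of 0.128 (0.112 to 0.145), and Casp8, the apoptotic caspase of death receptors, had 20.4 and 9.82, a ratio of 0.482 (0.430 to 0.540). The ubiquitin ligase Peli2 had 1.86 and 10.0, a ratio of 5.41 (4.68 to 6.27), and Tab3 had 1.08 and 2.99, a ratio of 2.76 (2.26 to 3.38).

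Of 14 TNF superfamily genes with other symbols, 9 were above 0 in both libraries, of which 3 were higher and 2 lower. Over all genes above 0 in both libraries, 18.5% were higher and 13.2% lower. The lists of this paragraph are too small to be read against those shares. Among the higher, Lta, named after its values were seen, had about 1 and 2 fragments, and its interval (0.123 to 139) includes 1. Cd40, a costimulatory receptor, had an FPKM of 1.16 and 0.152, a ratio of 0.131 (0.0545 to 0.273), and Relt had 6.51 and 2.47, a ratio of 0.380 (0.307 to 0.467). Ngfr, the low-affinity neurotrophin receptor, had 3.52 and 10.4, a ratio of 2.95 (2.54 to 3.43), and Eda had 1.41 and 3.11, a ratio of 2.21 (1.80 to 2.71). Of 18 genes of the IL-6 family and common beta chain with other symbols, 14 were above 0 in both libraries. Among those, 4 were higher and 4 lower. The higher ones included Cntf, named after its values were seen, with about 4 and 10 fragments and an interval (0.781 to 11.8) that includes 1. The cardiotrophin-like ligand Clcf1 had 10.6 and 1.89, a ratio of 0.179 (0.134 to 0.237). Its receptor chain Cntfr had 6.25 and 0.976, a ratio of 0.156 (0.104 to 0.226). This ligand and its receptor chain were thus both lower. Of 11 maturation and shedding genes, 3 were higher and 0 lower, and Casp1, the protease that matures IL-18 and IL-1 beta, had 0.244 and 1.28, a ratio of 5.22 (2.25 to 14.0).

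The depth set how firmly these values can be read. Of the 42 members with FPKM of at least 1 in a library, 39 had an interval that did not include 1, the others being Il18, Tnfrsf21 and Tnfrsf1a. Of the 16 higher and 28 lower members, 12 and 26 had an interval without 1. The recovered denominators of the FPKM values were 21471176 fragments for D0 and 18265615 for D7, so that the FPKM of 1 fragment was 1.18 times larger at D7. Annotated exons on the opposite strand overlap Il34, Il4ra, Il6ra, Il1rap, Il3ra, Il7, Il16, Il11ra1, Tnfsf9, Tnfrsf23 and Tnfrsf26 as well as Il18bp, and if the counting did not use strand, the reads of such pairs cannot be told apart. Of the 38 named members past 2-fold, 19 stayed past it in the same direction in all 6 of the other scalings and pseudocounts tried.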

How the data were processed

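The authors filtered reads, removed duplicates, aligned the rest with SOAP2 to the genome (mm10) and gene sequences, and deposited an FPKM for each gene in each library; the submitters' processing notes name Bowtie2. How the strand was used in counting is not given in the sources used here. Of 27324 rows, 3963 carried no value. The members and lists were chosen with earlier results of these data known, and some genes are not reported here. Ratios of deposited FPKM were taken without a pseudocount for genes above 0 in both libraries.

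Fragments were recovered from 600 single-exon genes, each 600 bp or longer, where 100% of low values (up to 20 fragments) were whole within 0.1, beside 17.3% and 20.9% with lengths shuffled. For genes with several exons the named transcript gave the length, so numbers of fragments are approximate. Named members had FPKM of at least 1 in a library, or passed 2-fold with an interval wholly above or below 1, or were listed at 0 in 1 library with more than 10 fragments in the other. Genes of the lists were named past 2-fold with FPKM of at least 1. Coordinates are those of GENCODE M21. The first 30 transcribed bases in the RefSeq table were found in an annotated transcript for 72 of 92 members. Alternatives were pseudocounts of 0.1 and 1, 4 scalings, filters at FPKM of 0.1 and 1, a threshold of 4, intervals and transcript length. The scripts, tested on simulated data, ran on matplotlib 3.10.9, pandas 2.3.3, scipy 1.17.1, numpy 2.4.6 and Python 3.11.15.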

Additional observations from a re-analysis of the deposited data

How the results depend on the processing

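The lower members outnumbered the higher ones in every setting tried for these counts. Of the named members only Il10rb turned, at a ratio of 0.941 under division by the library median. The 16 higher members became 6 with a pseudocount of 1, 7 at FPKM of at least 1 and 5 at a threshold of 4, and the 28 lower members became 13 with a pseudocount of 1 and 13 at a threshold of 4. The 18 higher genes of the signalling lists became 6, 11 and 7 under those 3 settings, and the 14 lower ones became 9 with a pseudocount of 1, 6 at a threshold of 4 and 23 under division by the library median (beside 16 higher). In the signalling lists the lower genes therefore outnumbered the higher ones with a pseudocount of 1, under that division and at FPKM of at least 1 (12 lower). By construction a pseudocount pulls the ratios of low genes toward 1, and the filter and the threshold leave fewer genes. That division, made after raising every FPKM under 0.01 to 0.01, moved log2 ratios by -0.35. It gave 18 higher and 36 lower members, with Osmr (0.395) and Tnfrsf1b (0.428) among the lower. The division and the pseudocounts also gave ratios to genes listed at 0 in 1 library only, so their counts cover more genes. Shares over all genes were not counted for these settings or for the threshold of 4. Their counts therefore cannot be set beside the 13.2% lower and 18.5% higher of all genes. Centring on the median ratio left Il1r1 (0.503), Lif (0.503), Il2rg (0.509) and Tnfrsf14 (0.501) short of 0.5. With the longest transcript in place of the named one, 39 members still had an interval without 1. No paired analysis was possible because there was 1 library per stage. Members with a handful of fragments, such as Tnf, Osm and Il17re, are limited by depth.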
